A study of Homo sapiens with 12 samples.

Results

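The NF-kappaB pathway genes described here are a list of 37 genes given by symbol and drawn up with earlier results of these data known: the 5 subunits of the transcription factor and the inhibitors, kinases, adaptors, ubiquitin enzymes, receptors, ligand and induced genes around them. All 37 were matched among the 58381 genes of the count files, and 35 of them were among the 19162 genes with enough fragments to be tested. LTB was listed at 0 in all 12 libraries and TNFRSF1B had 1 to 10 fragments per library, and both were therefore not tested.

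Messenger RNA of 2 prostate cancer cell lines was sequenced in 12 libraries, 3 from each of 4 groups. VCaP is a line from a bone metastasis of prostate cancer that carries much wild-type androgen receptor and the TMPRSS2-ERG fusion. VCaP-T was established from it as a subclone grown with 10 nM testosterone (T), and VCaP-CT was established from VCaP-T as a subclone able to grow at 0.1 nM T, so each line stands for a single subclone. All cells were kept in medium with stripped serum. The first group was VCaP-CT given 10 nM T for 48 h (rechallenged VCaP-CT), and the second was VCaP-CT left at its usual 0.1 nM T (unchallenged VCaP-CT). The third was VCaP-T given only 0.1 nM T for 48 h (depleted VCaP-T), and the last was VCaP-T left at its usual 10 nM T (undepleted VCaP-T). VCaP-CT was at passage 73 and VCaP-T at passage 84. The study asked which genes respond to testosterone loss, and which of these responses are restored, kept or lost in the line adapted to low T.

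NF-kappaB is a family of dimers built from RELA, RELB, REL and the products of NFKB1 and NFKB2. In resting cells IkappaB proteins hold the dimers in the cytoplasm. In the canonical branch, receptors such as those for TNF and interleukin-1 act through adaptors and the IKK kinases to have IkappaB degraded, and the dimers then enter the nucleus. In the non-canonical branch, the kinase NIK (MAP3K14) and IKK-alpha (CHUK) cause the NFKB2 product to be processed, and RELB is its usual partner. Many of the brakes of the pathway, among them NFKBIA and TNFAIP3, are themselves NF-kappaB targets, as is the ubiquitin ligase gene BIRC3. Their transcripts are therefore often read as a sign of pathway activity. Transcript levels alone do not show the protein amount or the location of any subunit.

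The libraries held 30.2 to 40.8 M counted fragments. In depleted VCaP-T, replicate 2 differed from both sister libraries, with correlations of 0.962 and 0.967 across genes (log2 normalized counts), where all other pairs of replicates had at least 0.992. In that library 8 of the 35 tested members lay more than 1.5-fold from both sisters (CD83, NFKBIE and RELB above, IKBKB, NFKBIZ, REL, TRAF1 and TRAF6 below), against 0 or 1 member in each of the other 11 libraries. The counts of members past the adjusted p are therefore also given without it, as are the values of several members that it moved. The testosterone response of the libraries was as labelled: the summed level of the androgen-induced TMPRSS2 and FKBP5 was 37.8 to 43.5 FPKM in depleted VCaP-T against 111 to 113 FPKM in undepleted VCaP-T, and 135 to 136 FPKM in rechallenged VCaP-CT against 29.1 to 30.5 FPKM in unchallenged VCaP-CT. FPKM is the number of fragments per kilobase of exon and per M fragments, computed here from the counts. Luminal prostate markers (7 listed, none at 0) summed to 1657 to 2650 FPKM over the 12 libraries.

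Per kilobase, the members spanned a wide range of levels. The highest mean level over the 12 libraries belonged to IRAK1, the kinase that links interleukin-1 and Toll-like receptors to TRAF6 (59.3 FPKM), followed by the adaptor TAB2 (46.0 FPKM), the subunit RELA (39.0 FPKM) and the inhibitor NFKBIA, which encodes IkappaB-alpha (30.1 FPKM). Among the subunits, RELA was followed by NFKB2 (6.46 FPKM), NFKB1 (4.15 FPKM), RELB (3.19 FPKM) and REL (0.586 FPKM). At the low end stood the TNF receptor TNFRSF1A (0.309 FPKM), CD83 (0.288 FPKM), the kinase IKBKE (0.159 FPKM), the second TNF receptor TNFRSF1B (0.0238 FPKM) and the ligand LTB, lymphotoxin beta, listed at 0. LTB lies in the MHC region of chromosome 6, where 102 of the 117 other named genes within 500 kb were also listed at 0 in all 12 libraries (87.2%, against 34.8% of all named genes). Between 29 and 33 Mb of that chromosome 278 of 325 named genes were at 0, among them TUBB and CSNK2B, which nearly all cells use, so the 0 of LTB says nothing about its expression. Around the other 36 members the share of genes at 0 was 7.4 to 51.6%.

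**Figure D1:**
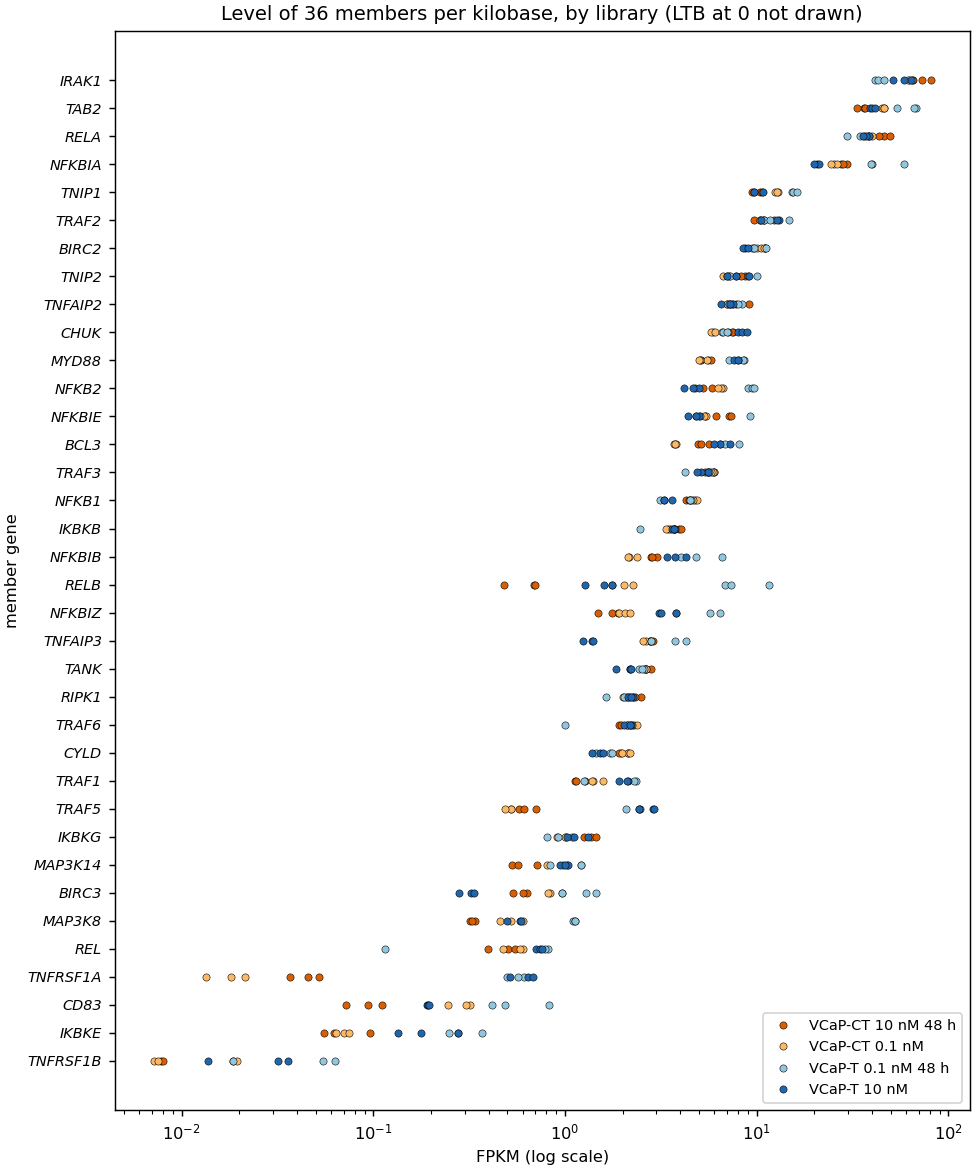
FPKM of 36 members (LTB, at 0, is not drawn) in each of the 12 libraries on a log axis, ordered by mean level from IRAK1 (59.3 FPKM) down to TNFRSF1B (0.0238 FPKM). RELB and BIRC3 are highest in depleted VCaP-T, and TRAF5 and TNFRSF1A are lowest in the 6 VCaP-CT libraries.

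Of the 35 tested members, 21 passed an adjusted p of 0.01 in at least 1 of the 6 comparisons made and 14 passed in none. The share of all genes that passed in at least 1 comparison was not computed, so these counts describe the list only. A gene is said to rise or fall below only where it passed that threshold, in edgeR's quasi-likelihood test adjusted over all genes tested. The comparisons share groups, so a group that is high in one of them weighs on the others. The sources do not say whether the 3 replicates are separate cultures, and p-values therefore measure only how these samples vary, which may be technical variation. In cells in bulk, fewer cells with a transcript and less of it per cell cannot be told apart.

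**Figure D2:**
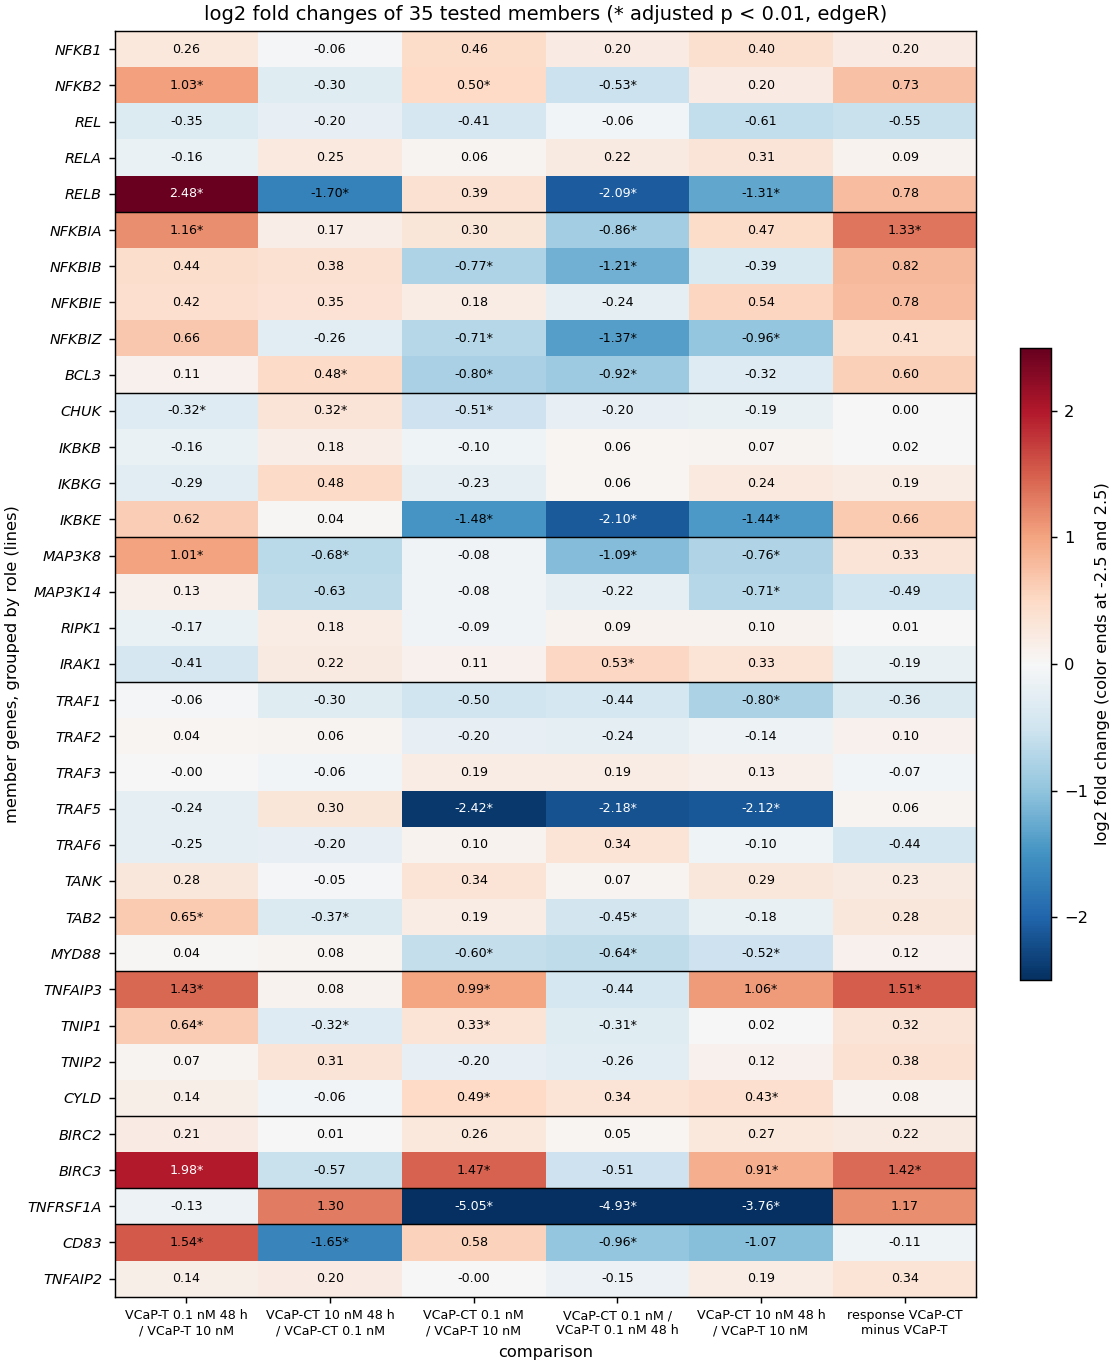
log2 fold changes of the 35 tested members (rows, grouped by role) in the 6 comparisons (columns, in each the first named group over the second), with a star where the adjusted p was under 0.01. Values are printed in the cells, from -5.05 for TNFRSF1A to 2.48 for RELB, and colors end at -2.5 and 2.5.

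Upon 48 h of testosterone depletion in VCaP-T, 9 of the 35 members rose and 1 fell. Over all genes tested 6.15% rose and 3.83% fell. The 9 were both parts of the non-canonical dimer, RELB and NFKB2, the inhibitor NFKBIA, the kinase MAP3K8, the adaptor TAB2, the brakes TNFAIP3 and TNIP1, the ubiquitin ligase BIRC3 and the induced gene CD83, and the 1 that fell was CHUK. By role, they were 2 of 5 subunits, 1 of 5 IkappaB proteins, 1 of 4 upstream kinases, 1 of 8 adaptors, 2 of 4 brakes, 1 of 2 IAP ligases and 1 of 2 induced genes, and CHUK was 1 of 4 members of the IKK group. The median log2 fold change of the members was 0.14, against 0.04 over all genes tested. With the study's fold and count thresholds added (a log2 fold change over 1 and group medians over 13 normalized counts apart), 7 members rose and 0 fell, against 2.46% and 0.678% of all genes. In 12 members all 3 depleted libraries lay above the undepleted ones and in 2 below, against 20.4% and 17.6% of all genes.

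RELB, the subunit that pairs with the NFKB2 product (ENSG00000104856.13, chromosome 19, 45001430 to 45038198 of GRCh38), had 731, 1246 and 781 normalized counts in depleted VCaP-T, against 189, 170.2 and 136 in undepleted VCaP-T. Normalized counts are counts scaled by TMM to a common library size. Every depleted library lay well above every library at 10 nM T, with replicate 2 the highest, and the levels were 5.56-fold higher in depleted VCaP-T (log2 fold change 2.48, SE 0.22, edgeR adjusted p = 1.58e-05, and 2.20 without replicate 2). NFKB2, which encodes p100 and p52 (ENSG00000077150.18, chromosome 10, 102394110 to 102402529), had 1427, 1498 and 1530.5 normalized counts in depleted VCaP-T, against 791, 733 and 662 in undepleted VCaP-T. The depleted libraries lay close to each other and did not overlap with the others (log2 fold change 1.03, SE 0.09, edgeR adjusted p = 1.98e-05).

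The other 3 subunits did not pass. RELA, the main transactivating subunit (ENSG00000173039.18, chromosome 11, 65653596 to 65663094), had 6672, 5670.3 and 6955 normalized counts in depleted VCaP-T, against 7460.0, 7176 and 6898 in undepleted VCaP-T (log2 fold change -0.16, SE 0.09, edgeR adjusted p = 0.215). NFKB1, which encodes p105 and p50 (ENSG00000109320.11, chromosome 4, 102501329 to 102617302), had 1001, 690.3 and 995 normalized counts in depleted VCaP-T, against 721, 726 and 799 in undepleted VCaP-T (log2 fold change 0.26, SE 0.13, edgeR adjusted p = 0.161). Its replicate 2 lay below the libraries at 10 nM T and its sisters above them, and without that library NFKB1 rose (log2 fold change 0.41, SE 0.07, edgeR adjusted p = 8.72e-05). REL, the subunit best known from lymphocytes (ENSG00000162924.14, chromosome 2, 60881521 to 60931610), had 378, 53.1 and 366 normalized counts in depleted VCaP-T, against 329, 343 and 353 in undepleted VCaP-T (log2 fold change -0.35, SE 0.45, edgeR adjusted p = 0.609). Replicate 2 decided the sign: without it the log2 fold change was 0.12 (edgeR adjusted p = 0.43). Another annotated gene overlaps 43.3% of the exon length of REL, and fragments there were left out of the counts.

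Among the inhibitors, NFKBIA (ENSG00000100906.10, chromosome 14, 35401511 to 35404749) had 3325, 4932 and 3294 normalized counts in depleted VCaP-T, against 1724, 1775 and 1667 in undepleted VCaP-T. All depleted libraries lay above, replicate 2 the furthest (log2 fold change 1.16, SE 0.13, edgeR adjusted p = 0.000103, and 0.94 without replicate 2). TNFAIP3, which encodes the ubiquitin-editing enzyme A20 (ENSG00000118503.14, chromosome 6, 137867188 to 137883312), had 759, 501 and 665 normalized counts in depleted VCaP-T, against 245, 222 and 249.8 in undepleted VCaP-T. Here replicate 2 was the lowest of the depleted libraries and still well above the libraries at 10 nM T (log2 fold change 1.43, SE 0.13, edgeR adjusted p = 2.26e-05). TNIP1, a ubiquitin-binding partner of A20, rose to 3202 ± 95.4 normalized counts in depleted VCaP-T, against 2055 ± 124 in undepleted VCaP-T (SD, 3 libraries each, with a log2 fold change of 0.64, SE 0.07, edgeR adjusted p = 0.000103).

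BIRC3, which encodes the ubiquitin ligase cIAP2 (ENSG00000023445.13, chromosome 11, 102317450 to 102339403), had 386, 256 and 340.3 normalized counts in depleted VCaP-T, against 74.3, 85.6 and 88.8 in undepleted VCaP-T. The lowest depleted library was still clearly above the highest library at 10 nM T (log2 fold change 1.98, SE 0.16, edgeR adjusted p = 8.05e-06). Its neighbour and relative BIRC2 (cIAP1) did not pass, with 1617 ± 156 normalized counts in depleted VCaP-T and 1397 ± 43.7 in undepleted VCaP-T (SD, 3 libraries each, with a log2 fold change of 0.21, SE 0.09, edgeR adjusted p = 0.106). MAP3K8, the kinase TPL2 that is held by the NFKB1 product p105 (ENSG00000107968.9, chromosome 10, 30433937 to 30461833), had 140.2, 143 and 143 normalized counts in depleted VCaP-T, against 74.3, 75.1 and 63.1 in undepleted VCaP-T. Its 3 depleted libraries were nearly equal (log2 fold change 1.01, SE 0.13, edgeR adjusted p = 0.000336). TAB2, which ties polyubiquitin chains to the kinase TAK1, rose to 13269 ± 1568 normalized counts in depleted VCaP-T, against 8481 ± 263 in undepleted VCaP-T (SD, 3 libraries each, with a log2 fold change of 0.65, SE 0.09, edgeR adjusted p = 0.000404).

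CD83, a surface protein best known from mature dendritic cells (ENSG00000112149.9, chromosome 6, 14117256 to 14136918), had 36.7, 72.9 and 43.3 normalized counts in depleted VCaP-T, against 17.0, 17.1 and 17.4 in undepleted VCaP-T. The 3 libraries at 10 nM T were nearly identical, and the depleted ones varied more (log2 fold change 1.54, SE 0.27, edgeR adjusted p = 0.00219, and 1.20 without replicate 2). CHUK, which encodes IKK-alpha, had 1613, 1625 and 1716 normalized counts in depleted VCaP-T, against 1956, 2046 and 2162 in undepleted VCaP-T (log2 fold change -0.32, SE 0.07, edgeR adjusted p = 0.00735). CD83 and CHUK lost their calls with single libraries left out: leaving out any 1 of the 3 libraries at 10 nM T removed both (highest adjusted p 0.0128 and 0.0401), with 8, 8 and 9 members then called, and CHUK was also lost without depleted replicate 1 or 3 (9 called each). The other 8 remained with each of the 6 libraries left out. With only the 6 VCaP-T libraries fitted, NFKB2, RELB, TNFAIP3 and BIRC3 remained, and NFKBIA, MAP3K8, TAB2, TNIP1, CD83 and CHUK did not pass. Without depleted replicate 2, 11 members rose (NFKB1 and NFKBIZ added) and 2 fell (IRAK1 added), against 14.4% and 12.6% of the 19649 genes then tested.

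**Figure D3:**
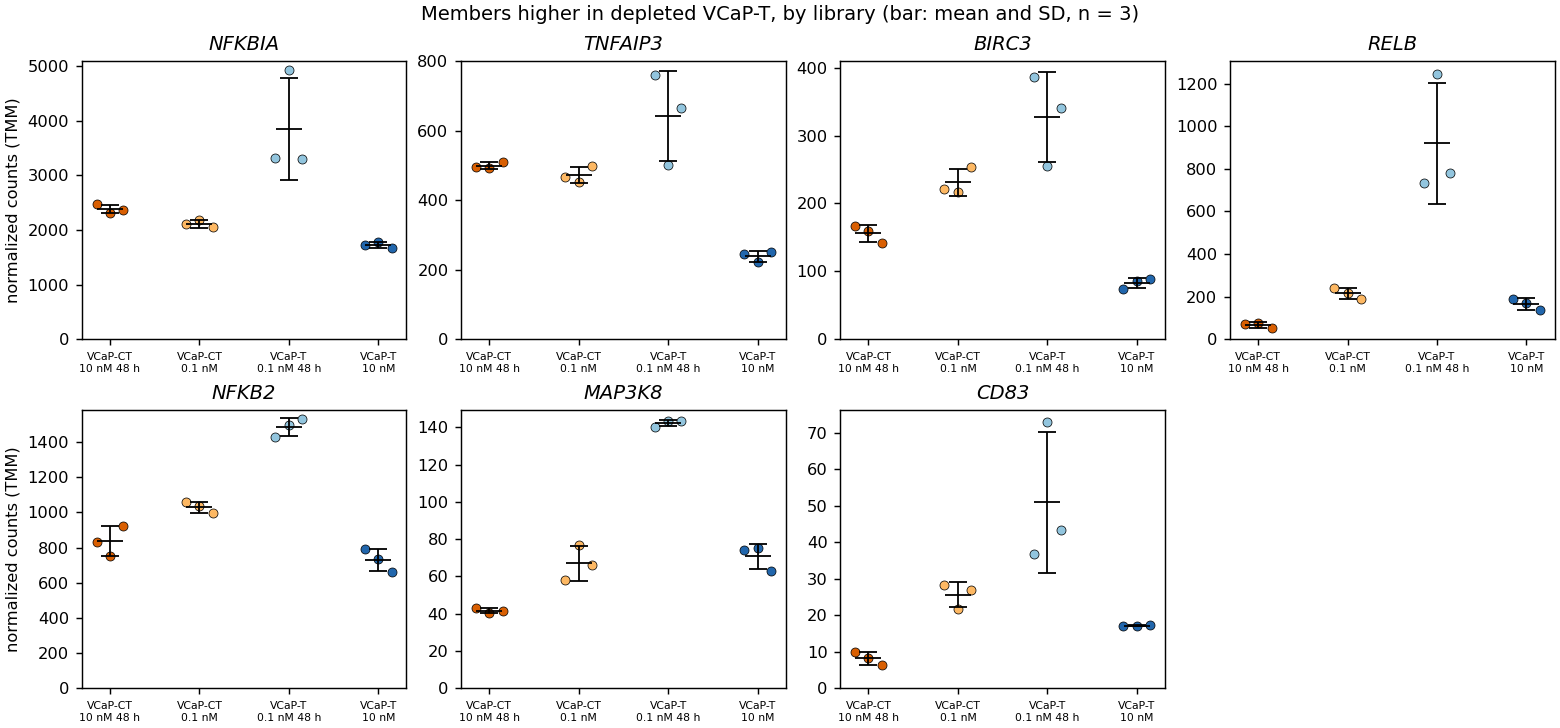
Normalized counts (TMM) of 7 members that rose with the largest folds in depleted VCaP-T, in each library of the 4 groups, with the mean and SD of 3 libraries. In every panel the 3 depleted VCaP-T libraries lie above the 3 libraries of undepleted VCaP-T, as for RELB with 731, 1246 and 781 against 189, 170.2 and 136 normalized counts.

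The start regions of 3 of these genes are shown because they passed the test of the difference in response described further on. They are the 250 bases before the transcription start in the RefSeq annotation of GRCh38.p14, read 5′ to 3′ on the strand of the gene, with matches to the kappaB motif in capitals. The positions are chr14:35404750-35404999, minus strand, for NFKBIA, chr6:137867009-137867258, plus strand, for TNFAIP3 and chr11:102317234-102317483, plus strand, for BIRC3.
NFKBIA: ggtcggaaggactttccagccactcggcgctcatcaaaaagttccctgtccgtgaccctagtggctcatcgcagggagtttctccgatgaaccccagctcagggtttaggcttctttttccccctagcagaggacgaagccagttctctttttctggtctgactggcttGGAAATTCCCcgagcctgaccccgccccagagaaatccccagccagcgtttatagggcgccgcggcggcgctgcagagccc
TNFAIP3: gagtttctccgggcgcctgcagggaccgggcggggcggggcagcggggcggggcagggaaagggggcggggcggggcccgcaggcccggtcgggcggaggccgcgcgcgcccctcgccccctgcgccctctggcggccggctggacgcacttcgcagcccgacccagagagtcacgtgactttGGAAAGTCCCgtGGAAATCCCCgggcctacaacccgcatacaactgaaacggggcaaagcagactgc
BIRC3: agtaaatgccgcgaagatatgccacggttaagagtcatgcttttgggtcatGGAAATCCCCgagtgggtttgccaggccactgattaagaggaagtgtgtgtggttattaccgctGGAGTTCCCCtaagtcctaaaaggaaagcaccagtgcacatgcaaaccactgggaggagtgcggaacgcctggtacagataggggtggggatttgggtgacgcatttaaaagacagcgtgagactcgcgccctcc

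Counted from the start site, the matches lay at -81 to -72 in NFKBIA, at -67 to -58 and -55 to -46 in TNFAIP3, and at -199 to -190 and -135 to -126 in BIRC3. Over windows of 300 bases (250 before and 50 after the start, both strands searched), a kappaB match was present in 12 of the 34 members with a window (35.3%), against 10.8% of all 27303 windows. The other 9 were NFKB1, REL, NFKBIZ, BCL3, MAP3K8, IRAK1, TRAF3, TANK and LTB. RELB, NFKBIE and IKBKB had no window. The 6 letters TGTTCT, one arm of the consensus androgen receptor element, matched in 1 of the 34 windows, that of CHUK (2.94%), against 14.9% of all windows. Of the members with a window that rose on depletion, NFKBIA, TNFAIP3, BIRC3 and MAP3K8 held a kappaB match and NFKB2, TAB2, TNIP1 and CD83 did not. Only a single listed start per gene was searched. For TAB2 (window from 149317462, counted gene from 149218641) and TNIP1 (window to 151065381, minus-strand gene to 151093577) it lay inside the counted gene, and other starts were not searched. A match is a description of the letters in the window and not a measured binding site.

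In VCaP-CT kept at 0.1 nM T, the 9 members that rose on depletion did not share 1 level. Set against undepleted VCaP-T, 4 of them were higher (NFKB2, TNFAIP3, TNIP1 and BIRC3, against 14.8% of all genes) and 5 did not pass (RELB, NFKBIA, MAP3K8, TAB2 and CD83). Set against depleted VCaP-T at the same 0.1 nM T, 7 were lower (against 16.4% of all genes) and 2 did not pass (TNFAIP3 and BIRC3). The 9 were picked for being high in these depleted libraries and low in the undepleted ones. The choice thus favours both counts, which are a description only. Of the 7, CD83 passed in 1 and TNIP1 in 2 of the 6 fits that left out a library (highest adjusted p 0.0442 and 0.0265), and CD83 was lost without depleted replicate 2 (log2 fold change -0.62, against -0.96 with it). The other 5 passed in all 6. RELB had 241, 217 and 188 normalized counts in unchallenged VCaP-CT, all far below the depleted VCaP-T libraries (log2 fold change -2.09, SE 0.21, edgeR adjusted p = 9.71e-06) and near those of undepleted VCaP-T (log2 fold change 0.39, 95% interval -0.09 to 0.86). MAP3K8 had 58.2, 76.7 and 66.1, a range that contained the libraries of undepleted VCaP-T (log2 fold change -0.08, 95% interval -0.39 to 0.22). CD83 had 28.2, 21.8 and 27.0 and NFKBIA 2105, 2189 and 2051 normalized counts, all above undepleted VCaP-T without passing the test (edgeR adjusted p = 0.126 and 0.0871).

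TNFAIP3 had 468, 453 and 498 normalized counts in unchallenged VCaP-CT, against 245, 222 and 249.8 in undepleted VCaP-T, and the groups were wholly apart (log2 fold change 0.99, SE 0.13, edgeR adjusted p = 8.39e-05). BIRC3 had 222, 217 and 254 normalized counts in unchallenged VCaP-CT, against 74.3, 85.6 and 88.8 in undepleted VCaP-T (log2 fold change 1.47, SE 0.16, edgeR adjusted p = 1.42e-05). Against depleted VCaP-T both were lower in every VCaP-CT library, with log2 fold changes of -0.44 and -0.51 that just missed the threshold (edgeR adjusted p = 0.0151 and 0.0155). Both passed it without depleted replicate 2 (log2 fold change -0.59, SE 0.08, edgeR adjusted p = 2.66e-06 for TNFAIP3, and log2 fold change -0.66, SE 0.10, edgeR adjusted p = 2.07e-05 for BIRC3). NFKB2 had 1059, 1035 and 996 normalized counts in unchallenged VCaP-CT, between both VCaP-T groups, and was higher than undepleted VCaP-T (log2 fold change 0.50, SE 0.09, edgeR adjusted p = 0.000985) and lower than depleted VCaP-T (log2 fold change -0.53, SE 0.09, edgeR adjusted p = 0.000656).

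When VCaP-CT was rechallenged with 10 nM T for 48 h, 2 members rose and 5 fell, against 7.07% and 7.19% of all genes tested. RELB, MAP3K8, TAB2, TNIP1 and CD83 fell, all of which had risen on depletion in VCaP-T, and BCL3 and CHUK rose. The count was not stable. With any 1 of the 6 VCaP-CT libraries left out, 1 or 2 members passed, and RELB alone passed each time. The members left were RELB and MAP3K8 without 0.1 nM replicate 1, RELB and CD83 without 0.1 nM replicate 2, RELB and CHUK without 10 nM replicate 3, and RELB alone without 0.1 nM replicate 3 or 10 nM replicate 1 or 2. With the study's fold and count thresholds added, 0 rose and RELB and CD83 fell, against 1.83% and 3.3% of all genes. In 14 members the rechallenged libraries all lay above the unchallenged ones and in 11 below, against 27.4% and 28.3% of all genes.

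RELB had 73.8, 74.8 and 51.2 normalized counts in rechallenged VCaP-CT, against 241, 217 and 188 in unchallenged VCaP-CT. All 3 rechallenged libraries were below all 3 others (log2 fold change -1.70, SE 0.24, edgeR adjusted p = 0.000295), and also below all 3 libraries of undepleted VCaP-T. CD83 had 9.84, 8.31 and 6.40 normalized counts in rechallenged VCaP-CT, against 28.2, 21.8 and 27.0 in unchallenged VCaP-CT, from 6 to 33 raw fragments per library (log2 fold change -1.65, SE 0.34, edgeR adjusted p = 0.00365). MAP3K8 had 43.1, 40.5 and 41.6 normalized counts in rechallenged VCaP-CT, against 58.2, 76.7 and 66.1 in unchallenged VCaP-CT (log2 fold change -0.68, SE 0.15, edgeR adjusted p = 0.00578). The groups did not overlap for any of these 3.

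BCL3, an atypical IkappaB protein that acts with p50 or p52 in the nucleus, had 564, 588 and 648 normalized counts in rechallenged VCaP-CT, against 436, 425 and 427 in unchallenged VCaP-CT (log2 fold change 0.48, SE 0.11, edgeR adjusted p = 0.00561). CHUK had 1843, 1815 and 1727 normalized counts in rechallenged VCaP-CT, against 1436, 1411 and 1475 in unchallenged VCaP-CT (log2 fold change 0.32, SE 0.07, edgeR adjusted p = 0.00532). TAB2 and TNIP1 fell by smaller amounts, with log2 fold changes of -0.37 and -0.32 (edgeR adjusted p = 0.00964 and 0.00749). Of the remaining subunits, NFKB2 (-0.30, adjusted p = 0.0348), RELA (0.25, adjusted p = 0.0561), NFKB1 (-0.06, adjusted p = 0.787) and REL (-0.20, adjusted p = 0.796) did not pass, all as log2 fold changes from edgeR.

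Whether the change of a member between the T levels differed between the lines was tested directly. The test took the log2 change from 0.1 nM to 10 nM T in VCaP-CT minus the same change in VCaP-T. T was added for 48 h in VCaP-CT and withdrawn for 48 h in VCaP-T, so the line and the direction of the change cannot be told apart. In 3 of the 35 members, NFKBIA, TNFAIP3 and BIRC3, the difference passed, and in all of them it was positive, against 0.804% of all genes tested (0.449% with a difference over 1 on the log2 scale, which all 3 members had). A negative difference passed for 0 members, against 0.162% of all genes (0.115% with the fold added, and 0 members had one at an unadjusted p under 0.05 in edgeR, and 0 passed in DESeq2). The median of the 35 differences was 0.22, against 0.01 over all genes tested. The 6 libraries of VCaP-T enter both this contrast and the depletion contrast, so the result is not independent of the rise on depletion.

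TNFAIP3 changed by 0.08 (SE 0.13) on the log2 scale with 10 nM T in VCaP-CT, where it had 496, 491 and 511 normalized counts at 10 nM T and 468, 453 and 498 at 0.1 nM T, and by -1.43 (SE 0.13) in VCaP-T. The libraries of VCaP-CT overlapped between the T levels, and those of VCaP-T were far apart. The difference was 1.51 (SE 0.19, edgeR adjusted p = 0.0014), and it passed with each of the 12 libraries left out in turn (highest adjusted p 0.00729).

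NFKBIA had 2469.8, 2315 and 2364 normalized counts in rechallenged VCaP-CT, against 2105, 2189 and 2051 in unchallenged VCaP-CT, a log2 change of 0.17 (edgeR adjusted p = 0.389) beside -1.16 in VCaP-T. The rechallenged VCaP-CT libraries were all slightly above the others, while in VCaP-T the libraries at 10 nM T were all far below the depleted ones. The difference was 1.33 (SE 0.19, edgeR adjusted p = 0.00254). BIRC3 had 167, 159 and 142 normalized counts in rechallenged VCaP-CT, against 222, 217 and 254 in unchallenged VCaP-CT, a log2 change of -0.57 (edgeR adjusted p = 0.0185) beside -1.98 in VCaP-T. Both changes of BIRC3 were negative, and the one in VCaP-CT was the smaller, with a difference of 1.42 (SE 0.22, edgeR adjusted p = 0.00497).

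The calls of NFKBIA and BIRC3 were less stable than that of TNFAIP3. NFKBIA missed the threshold without any 1 library of undepleted VCaP-T or of unchallenged VCaP-CT, or without replicate 1 or 3 of rechallenged VCaP-CT (highest adjusted p 0.0136). BIRC3 missed it without any of these, without depleted replicate 3 and without replicate 2 of rechallenged VCaP-CT (highest adjusted p 0.0231). Without depleted replicate 2, 8 members passed, all positive: the same 3 with NFKB2, NFKBIZ, BCL3, TAB2 and TNIP1, against 5.62% of the genes then tested, and 0 were negative, against 1.77%. DESeq2 called 5, adding NFKB2 and BCL3.

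Members whose response was not shown to differ were not thereby shown to respond alike. For RELB the difference was 0.78 on the log2 scale, with a 95% interval of 0.08 to 1.48 (edgeR adjusted p = 0.26), and it was 0.50 without depleted replicate 2. For MAP3K8 it was 0.33, with an interval of -0.12 to 0.77, and for CD83 -0.11, with an interval of -1.02 to 0.80 (-0.44 without depleted replicate 2). CHUK was higher at 10 nM T by 0.32 on the log2 scale in both lines, with a difference of 0.00 and an interval of -0.21 to 0.21.

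**Figure D4:**
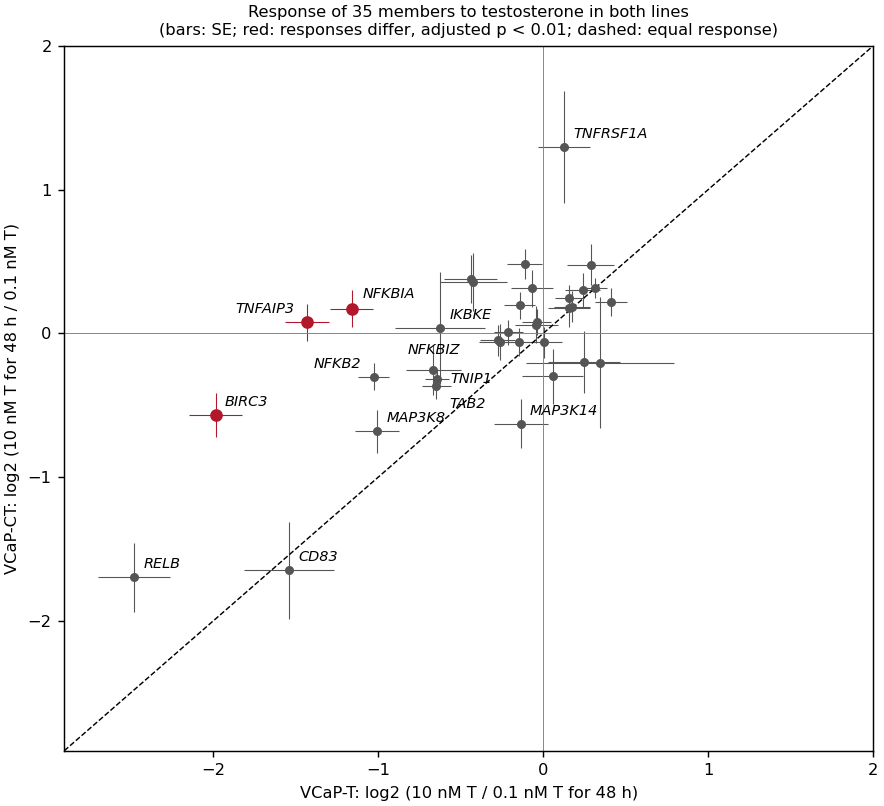
log2 change of each of the 35 tested members from 0.1 nM to 10 nM T in VCaP-T (x axis) and in VCaP-CT (y axis), with bars of 1 SE, a dashed line of equal response, and red for members whose responses differed. TNFAIP3, at -1.43 in VCaP-T and 0.08 in VCaP-CT, NFKBIA, at -1.16 and 0.17, and BIRC3, at -1.98 and -0.57, lie above the line, and CD83, at -1.54 and -1.65, lies close to it.

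Between the lines in their own maintenance medium, unchallenged VCaP-CT against undepleted VCaP-T, 5 members were higher and 8 lower in VCaP-CT, against 14.8% and 15.7% of all genes tested. The higher ones were NFKB2, BIRC3 and the brakes TNFAIP3, TNIP1 and CYLD. The lower ones were the IkappaB protein NFKBIB, the nuclear IkappaB proteins NFKBIZ and BCL3, the kinases CHUK and IKBKE, the adaptors TRAF5 and MYD88, and the receptor TNFRSF1A. The line and the T level differ together here and cannot be told apart. At a matched T level the line and a 48 h change of T differ together instead. There VCaP-T was the changed line at 0.1 nM T and VCaP-CT at 10 nM T. At a matched 0.1 nM T, 1 member (IRAK1) was higher and 14 lower in VCaP-CT than in depleted VCaP-T, against 13% and 16.4% of all genes, with a median log2 fold change of -0.26 for the members and -0.02 for all genes. At a matched 10 nM T, 3 were higher (TNFAIP3, CYLD and BIRC3) and 9 lower (RELB, NFKBIZ, IKBKE, MAP3K8, MAP3K14, TRAF1, TRAF5, MYD88 and TNFRSF1A) in VCaP-CT, against 12% and 13.2% of all genes. NFKBIZ, IKBKE, TRAF5, MYD88 and TNFRSF1A were lower in VCaP-CT in all 3 comparisons, and no member was higher in all 3. The share of all genes called in all 3 was not computed, and the comparisons share groups, so this describes the list only. At 10 nM T the calls of IKBKE and CYLD held in 2 of the 6 fits that left out a library (highest adjusted p 0.026 and 0.0204), that of MAP3K14 in 1 and that of TRAF1 in 0 (0.0296 and 0.0247), and the other 8 held in all 6. With the study's fold and count thresholds added, 1 member was higher and 3 lower in maintenance medium (5.61% and 7.06% of all genes), 0 and 7 at 0.1 nM T (3.62% and 8.68%), and 1 and 4 at 10 nM T (3.17% and 7.08%). Libraries of the lines did not overlap, with VCaP-CT higher or lower, in 13 and 13 members in maintenance medium (34.6% and 34.4% of all genes), 5 and 19 at 0.1 nM T (25.9% and 26.5%), and 10 and 15 at 10 nM T (31.1% and 30.6%). Without depleted replicate 2, 2 members were higher (CYLD added) and 18 lower (REL, CHUK, TRAF1, TNFAIP3 and BIRC3 added and CD83 lost) in VCaP-CT at 0.1 nM T, against 23.2% and 24.4% of the genes then tested.

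TNFRSF1A, the main receptor for TNF (ENSG00000067182.7, chromosome 12, 6328757 to 6342114), was close to absent in VCaP-CT. It had 7.38, 5.19 and 6.40 normalized counts in rechallenged VCaP-CT and 2.57, 1.89 and 3.01 in unchallenged VCaP-CT, against 86.0, 70.4 and 80.4 in depleted VCaP-T and 90.2, 73.2 and 96.1 in undepleted VCaP-T. Every VCaP-CT library was far below every VCaP-T library. From 8 fragments in 3 libraries of unchallenged VCaP-CT against 267 in 3 libraries of undepleted VCaP-T, its level was 2.87% of that in VCaP-T (exact Poisson 95% interval 1.23 to 5.74%, counting error only, log2 fold change -5.05, SE 0.25, edgeR adjusted p = 1.72e-08). At 10 nM T in both lines, 17 against 267 fragments gave 7.25% (interval 4.16 to 11.8%, log2 fold change -3.76, SE 0.22, edgeR adjusted p = 1.15e-07). Within VCaP-CT the change with 10 nM T did not pass (17 against 8 fragments, edgeR adjusted p = 0.0852).

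The neighbours of TNFRSF1A on chromosome 12, chosen after its values were seen, did not all share its difference. On 1 side PLEKHG6 had 110.1 ± 16.8 normalized counts in unchallenged VCaP-CT and 467 ± 23.6 in undepleted VCaP-T (SD, 3 libraries each, with a log2 fold change of -2.08, edgeR adjusted p = 1.32e-06), and SCNN1A on the other had 7.98 ± 1.76 and 23.0 ± 5.16 in the same order of groups (log2 fold change -1.50, edgeR adjusted p = 0.000706). LTBR, the receptor for lymphotoxin beta next to SCNN1A, had 3325 ± 94.8 normalized counts in VCaP-CT and 3496 ± 173 in VCaP-T and did not pass (log2 fold change -0.07, edgeR adjusted p = 0.455). CD9 did not pass either (log2 fold change 0.33, edgeR adjusted p = 0.0343).

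TRAF5, an adaptor of several TNF receptor family members (ENSG00000082512.14, chromosome 1, 211326615 to 211374946), had 183, 223 and 193 normalized counts in rechallenged VCaP-CT and 166, 167 and 155 in unchallenged VCaP-CT, against 779.5, 659 and 775 in depleted VCaP-T and 771, 915 and 929.6 in undepleted VCaP-T. The lines did not overlap at either T level, and the log2 fold change was -2.42 in maintenance medium, -2.18 at 0.1 nM T and -2.12 at 10 nM T (edgeR adjusted p = 1.2e-08, 3.2e-08 and 5.52e-08). Testosterone did not change it past the threshold in either line. Its neighbours RCOR3 and LINC00467 did not pass between the lines in maintenance medium (log2 fold changes 0.31 and -0.37, edgeR adjusted p = 0.0294 and 0.0845).

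IKBKE, the IKK-related kinase that acts with TBK1 (ENSG00000263528.7, chromosome 1, 206470476 to 206496889), had 7.38, 8.31 and 12.8 normalized counts in rechallenged VCaP-CT and 9.41, 8.52 and 10.0 in unchallenged VCaP-CT, against 49.2, 33.3 and 37.1 in depleted VCaP-T and 37.2, 18.1 and 23.8 in undepleted VCaP-T. The lines did not overlap, at 6 to 12 raw fragments per VCaP-CT library (log2 fold change -1.48, SE 0.33, edgeR adjusted p = 0.00312 in maintenance medium). The call in maintenance medium was lost without VCaP-T replicate 1 or any 1 library of unchallenged VCaP-CT (highest adjusted p 0.015). MYD88, the adaptor of Toll-like and interleukin-1 receptors, had 776, 708 and 703 normalized counts in unchallenged VCaP-CT, against 1119, 1064 and 1127 in undepleted VCaP-T, with no overlap (log2 fold change -0.60, SE 0.09, edgeR adjusted p = 0.000189).

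The IkappaB proteins BCL3, NFKBIB and NFKBIZ were lower in unchallenged VCaP-CT than in either VCaP-T group. At a matched 10 nM T NFKBIZ was lower too, and BCL3 and NFKBIB did not pass (log2 fold changes -0.32 and -0.39, edgeR adjusted p = 0.0293 and 0.0818). BCL3 had 436, 425 and 427 normalized counts in unchallenged VCaP-CT, against 826, 739 and 685 in undepleted VCaP-T (log2 fold change -0.80, SE 0.11, edgeR adjusted p = 6.52e-05). NFKBIB, which encodes IkappaB-beta, had 195, 176 and 175 normalized counts in unchallenged VCaP-CT, against 348, 306 and 277 in undepleted VCaP-T (log2 fold change -0.77, SE 0.16, edgeR adjusted p = 0.00244). NFKBIZ, a nuclear IkappaB protein, had 397, 429 and 453 normalized counts in unchallenged VCaP-CT, against 644, 659 and 784 in undepleted VCaP-T (log2 fold change -0.71, SE 0.17, edgeR adjusted p = 0.0051). None of the 3 overlapped between the groups. BCL3 was called with each of the 6 libraries left out, NFKBIB was lost without VCaP-T replicate 1 or VCaP-CT replicate 2 or 3, and NFKBIZ was lost without any 1 of them (highest adjusted p 0.0139 and 0.0259).

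CHUK was lower in unchallenged VCaP-CT, at 1441 ± 31.9 normalized counts, against 2055 ± 104 in undepleted VCaP-T (SD, 3 libraries each, with a log2 fold change of -0.51, SE 0.07, edgeR adjusted p = 8.08e-05), and did not pass at a matched T level (adjusted p = 0.0363 at 0.1 nM T and 0.0418 at 10 nM T, edgeR). CYLD, a deubiquitinase that removes the chains built during signaling, was higher in unchallenged VCaP-CT, at 955 ± 46.4 normalized counts, against 680.4 ± 44.0 in undepleted VCaP-T (SD, 3 libraries each, with a log2 fold change of 0.49, SE 0.09, edgeR adjusted p = 0.00128). TNIP1 was higher by a log2 fold change of 0.33 (edgeR adjusted p = 0.00284), a call lost without VCaP-T replicate 2 or 3 or any 1 VCaP-CT library (highest adjusted p 0.0184).

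**Figure D5:**
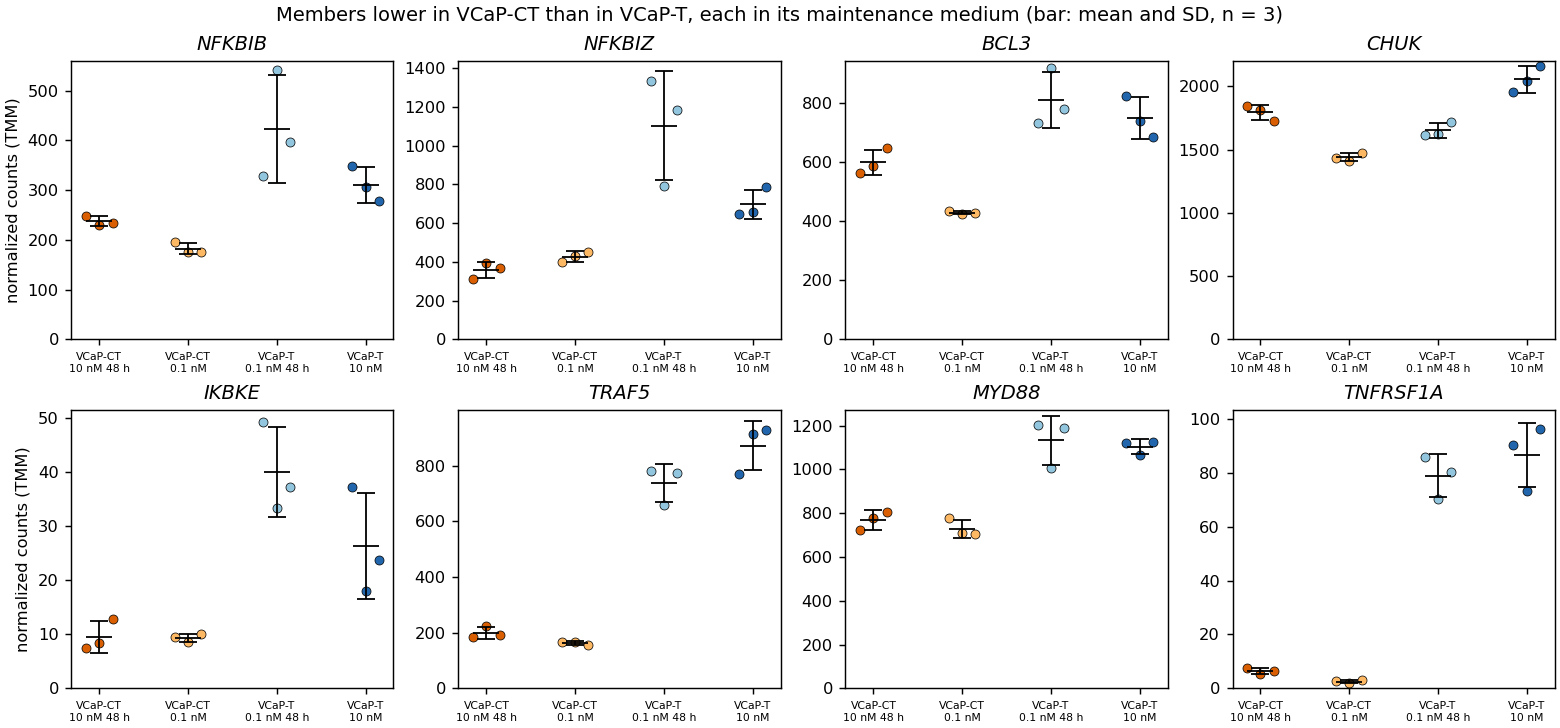
Normalized counts (TMM) of the 8 members lower in unchallenged VCaP-CT than in undepleted VCaP-T, in each library of the 4 groups, with the mean and SD of 3 libraries. TRAF5 and TNFRSF1A separate the lines at both T levels, with at most 223 and 7.38 normalized counts in VCaP-CT, and CHUK differs with the T level within each line.

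Of the subunits, RELB at 10 nM T had 73.8, 74.8 and 51.2 normalized counts in VCaP-CT against 189, 170.2 and 136 in VCaP-T, without overlap (log2 fold change -1.31, SE 0.24, edgeR adjusted p = 0.0011). RELA had 8855, 8386 and 9509 normalized counts in rechallenged VCaP-CT and 7729.6, 7361 and 7409 in unchallenged VCaP-CT, and NFKB1 had 945, 974 and 1047 and 1072, 1022 and 992 in the same groups. Neither passed between the lines in any of the 3 comparisons, and the nearest were RELA at 10 nM T (log2 fold change 0.31, edgeR adjusted p = 0.0136) and NFKB1 in maintenance medium (log2 fold change 0.46, edgeR adjusted p = 0.0107). DESeq2 called both of these higher in VCaP-CT, and edgeR without a filter on low counts called NFKB1. REL had 234, 254 and 183 normalized counts in rechallenged VCaP-CT and 282, 221 and 269 in unchallenged VCaP-CT and did not pass. Without depleted replicate 2, REL was lower in unchallenged VCaP-CT than in depleted VCaP-T (log2 fold change -0.53, SE 0.11, edgeR adjusted p = 0.000603).

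The 14 members that passed in no comparison were the subunits NFKB1, REL and RELA, the inhibitor NFKBIE, the kinases IKBKB, IKBKG and RIPK1, the adaptors TRAF2, TRAF3, TRAF6 and TANK, the brake TNIP2, the ligase BIRC2 and TNFAIP2. Their mean levels ran from 0.586 to 39.0 FPKM, and the largest change between 2 groups was that of REL at 10 nM T (log2 fold change -0.61). IKBKG has a near-identical pseudogene copy, and fragments that fit both were not counted, so its level is uncertain. The 3 members not yet given, IRAK1, MAP3K14 and TRAF1, passed between the lines only at a matched T level. IRAK1 was higher in unchallenged VCaP-CT than in depleted VCaP-T (8833 ± 204 against 6133 ± 339 normalized counts, SDs of 3 libraries each, with a log2 fold change of 0.53, SE 0.10, edgeR adjusted p = 0.000949). MAP3K14, the kinase NIK, and TRAF1 were lower in VCaP-CT at 10 nM T than in undepleted VCaP-T (log2 fold changes -0.71 and -0.80, edgeR adjusted p = 0.00567 and 0.00543), calls that held in 1 and 0 of the 6 fits with a library left out. An antisense gene overlaps 12.1% of the exon length of MAP3K14, and counting did not use the strand.

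The rest of the pathway was represented by 53 other components, receptors, ligands, adaptors and enzymes, of which 39 were tested. On depletion in VCaP-T 4 of the 39 rose and 2 fell: TNFRSF11A, the receptor RANK (log2 fold change 1.00), the ubiquitin ligase PELI2 (0.85), the receptor TLR1 (2.79) and the kinase IRAK2 (0.66) rose, and the protease MALT1 (-0.68) and the deubiquitinase OTULIN (-0.44) fell. On rechallenge of VCaP-CT 5 rose and 2 fell, with MALT1 (1.11), the kinase IRAK4 (0.57) and the receptor TLR3 (0.80) higher and PELI2 (-0.57) lower at the smallest p. The cytokine genes TNF and LTA lie beside LTB and were, like it, listed at 0. Between the lines in maintenance medium 5 were higher and 10 lower in VCaP-CT, with PELI2 (1.48) higher and the adaptor TRAF3IP2 (-1.47), CARD10 (-1.22) and the receptor TLR4 (-2.88) lower at the smallest p. At 0.1 nM T 5 were higher and 12 lower, and at 10 nM T 6 were higher and 8 lower. In the difference in response 0 passed in edgeR (7 positive and 0 negative at an unadjusted p under 0.05, and 2 positive in DESeq2). The share called over all genes is the one given above for each comparison.

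Of 36 genes known as NF-kappaB targets, 35 were matched and 16 tested, and 2 of those not tested (IER3 and TAP1) lie in the stretch of chromosome 6 listed at 0. On depletion, where 6.15% of all genes rose and 3.83% fell, 4 of the 16 rose and 0 fell (1 lower at an unadjusted p under 0.05 in edgeR, 0 in DESeq2). They were the transcription factor IRF1 with 271, 314 and 272 normalized counts in depleted VCaP-T, against 135, 139.8 and 140.0 in undepleted VCaP-T (log2 fold change 1.05, SE 0.12, edgeR adjusted p = 8.65e-05), the syndecan SDC4 (log2 fold change 0.70, SE 0.08, edgeR adjusted p = 0.000144), the cytokine IL32 (log2 fold change 2.65, SE 0.54, edgeR adjusted p = 0.00468) and the chemokine CCL20 (log2 fold change 2.89, SE 0.65, edgeR adjusted p = 0.00881). IL32 and CCL20 were near the limit of detection, with at most 21.0 and 16.1 normalized counts in any library, both in depleted replicate 2. On rechallenge 3 rose and 1 fell, against 7.07% and 7.19% of all genes. TNFAIP8 (1.18), the chemokine CXCL8 (2.00) and BCL2L1 (0.41) were higher and SDC4 (-0.40) lower in rechallenged VCaP-CT. Directions were mixed among the members too in the same libraries. There RELB, MAP3K8, TAB2, TNIP1 and CD83 fell, and BCL3 and CHUK rose.

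Between the lines in maintenance medium 0 of the 16 targets were higher (3 at an unadjusted p under 0.05 in edgeR, 0 in DESeq2) and 5 lower in VCaP-CT, against 14.8% and 15.7% of all genes. The 5 were SDC4 (-1.18), TNFAIP8 (-1.32), PTGS2, CSF1 (-0.83) and CXCL8 (-2.12). PTGS2, the inducible cyclooxygenase, had 0 fragments in the 3 libraries of unchallenged VCaP-CT and 40 in the 3 libraries of undepleted VCaP-T, at least 13.9-fold lower in VCaP-CT with a floor of 3 fragments over the group. At 0.1 nM T 0 were higher (2 at an unadjusted p under 0.05 in edgeR, 1 in DESeq2) and 8 lower, against 13% and 16.4% of all genes. At 10 nM T 1 was higher and 2 lower, against 12% and 13.2% of all genes. In the difference in response 0 passed in edgeR (7 positive and 0 negative at an unadjusted p under 0.05, and 2 positive in DESeq2).

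Several members and targets are best known from blood cells. The 11 blood cell markers summed to 0.458 to 0.770 FPKM in rechallenged VCaP-CT, 0.857 to 1.01 in unchallenged VCaP-CT, 0.629 to 1.07 in depleted VCaP-T and 0.561 to 1.07 in undepleted VCaP-T, and 4, 3, 3 and 2 of them were at 0 in all libraries of those groups. The leukocyte antigen PTPRC had 0 fragments in 11 of the 12 libraries and CD3D in all 12. CD14, CD79A, NKG7 and CSF1R had fragments in all 12 libraries, at most 27.7 normalized counts (CD14 in rechallenged VCaP-CT). Of the 3 blood cell markers tested, 1 was higher in VCaP-CT in maintenance medium and 1 at 0.1 nM T. At 10 nM T 1 was lower, and 0 passed on depletion or rechallenge. The 7 fibroblast and endothelial markers summed to 1.41 to 1.53 FPKM in rechallenged VCaP-CT, 1.03 to 1.08 in unchallenged VCaP-CT, 2.45 to 2.91 in depleted VCaP-T and 1.94 to 2.26 in undepleted VCaP-T, and 2 of the 3 tested rose on depletion. Their part in the results was not tested.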

How the data were processed

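Poly(A) RNA of the 4 groups was measured in stranded mRNA libraries. The authors aligned the reads to GRCh38 with STAR 2.5.4b and deposited counts of fragments per gene, made with featureCounts 1.6.2 on the exons of Gencode release 28. Per the file headers the counting ignored strand and dropped fragments shared by several genes or mapped more than once, which lowers genes with overlaps or near copies. A table normalized with DESeq2 was not used here.

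The counts (30.2 to 40.8 M per library) were fitted in R 4.3.3 with edgeR 4.0.16 (quasi-likelihood test, TMM, default filter on low counts, 12 libraries in 1 model of the 4 groups, no block), with Benjamini-Hochberg adjustment over 19162 genes. The main threshold was an adjusted p of 0.01. An SE is the log2 fold change divided by the root of F. The fitted spread is shared over all groups, so a p-value on depletion rests partly on groups outside that comparison. The scripts were tested on simulated counts. Alternatives were RLE scaling, DESeq2 1.42.0, no filter, only the libraries compared, a replicate block, the study's thresholds and each library left out. By rule, per-library values were given for the subunits, for members past the study's thresholds on depletion, on rechallenge or in maintenance medium, and for those past the test of the difference in response. Those of BCL3, CHUK, MYD88, NFKBIB and NFKBIZ, of the target IRF1 and the group means of TNIP1, TAB2, BIRC2, CYLD and IRAK1 were added after their values were seen. Members, lists and rules were chosen with earlier results of these data known, and lists hold genes that the study singled out from these samples, such as RELB.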

Additional observations from a re-analysis of the deposited data

Results flagged for a closer look

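The change from 0.1 nM to 10 nM T differed between the lines for NFKBIA, TNFAIP3 and BIRC3 by the test of the difference itself (VCaP-CT minus VCaP-T, edgeR). T was added in VCaP-CT and withdrawn in VCaP-T, so the line and the direction of the change cannot be told apart. For NFKBIA the difference was 1.33 on the log2 scale, from 0.17 in VCaP-CT and -1.16 in VCaP-T (adjusted p = 0.00254). For TNFAIP3 it was 1.51, from 0.08 in VCaP-CT and -1.43 in VCaP-T (adjusted p = 0.0014). For BIRC3 it was 1.42, from -0.57 in VCaP-CT and -1.98 in VCaP-T (adjusted p = 0.00497). Over all genes tested 0.804% had a positive difference past the threshold.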

How the results depend on the processing

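With only the 6 libraries of a comparison fitted, 4 members were called on depletion (10 in the model of all groups), 17 on rechallenge (7), 20 between the lines in maintenance medium (13), 24 between the lines at 10 nM T (12) and 11 at 0.1 nM T (15, with NFKBIA, TAB2, TNIP1 and CD83 lost), while all genes called numbered 283 against 1911, 6981 against 2732, 10491 against 5857 and 8334 against 4828, and 2932 against 5647 between the lines at 0.1 nM T. With the study's fold and count thresholds added, 2, 4, 7 and 5 members were called on rechallenge, in maintenance medium, at 0.1 nM T and at 10 nM T. Without a filter on low counts 2 members were called on rechallenge. DESeq2 called 5 members in the difference in response, and 617 genes against 185 there and 3112 against 1911 on depletion. With the replicate number as a block, 2 members were called on rechallenge, 9 on depletion, 2 in the difference in response (83 genes), and 13, 14 and 12 between the lines in maintenance medium, at 0.1 nM T and at 10 nM T. Deviations of same-numbered libraries correlated at -0.13 to 0.05 and not every library correlated best with its own number. The labels give only a replicate number, and this check cannot show whether same-numbered libraries were handled together. With 1 library left out, 8 to 13 members were called on depletion, 1 to 2 on rechallenge, 9 to 11 in maintenance medium, 13 to 20 at 0.1 nM T, 8 to 11 at 10 nM T and 1 to 8 in the difference in response. Without depleted replicate 2, 5320 genes were called on depletion and 1451 in the difference. No member changed sign past the threshold under any of these. RLE scaling moved the median of all genes by at most 0.01 on the log2 scale. Depth limits TNFRSF1A, IKBKE, CD83 and MAP3K8, with under 100 fragments in most libraries, and TNFRSF1B and LTB could not be tested.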
